A study of Mus musculus with 2 samples.

Results

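The genes described here are 9 transcription factor genes of T cells and NK cells, Tcf7, Lef1, Bach2, Satb1, Foxp3, Tbx21, Gata3, Eomes and Zbtb16. They were taken by symbol from a fixed list and not by their values, and they are 9 of the 22620 genes in the files. Their unique molecular identifiers (UMIs, one per captured transcript molecule) were summed over CD4+ T cells, CD8+ T cells, regulatory T (Treg) cells, γδ T cells and NK cells. The cells came from EO771-HEVM3 primary tumours and from the paired lymph nodes (LNs) of 6 C57BL/6J mice. EO771 is a mouse mammary carcinoma line, and HEVM3 is a derivative of it obtained by repeated in vivo selection for tumour cells that had spread through the high endothelial venules of LNs. The mice of a tissue were pooled in 1 single-cell library, and no mice without tumours were included. Mice were 5 to 6 weeks old when they were obtained, and their age at collection is not given in the sources used here. With 1 library per tissue no difference between the tissues could be tested, and every interval below is a 95% interval for counting error only.

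These factors divide the work of keeping T cells at rest and of turning them into specialised cells. Tcf7 (encoding TCF-1), Lef1, Bach2 and Satb1 are known from naive, resting and memory-like T cells, where TCF-1 and LEF-1 bind the same short DNA motif. Foxp3 defines the Treg lineage, Tbx21 (encoding T-bet) and its relative Eomes drive cytotoxic and type 1 programmes in CD8+ T cells and NK cells, Gata3 drives the type 2 programme and is also used by tissue Treg cells, and Zbtb16 (encoding PLZF) marks innate-like T cells.

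The deposited tumour library held 12427 cells and 173317475 UMIs, and the LN library held 11617 cells and 122207852 UMIs. After filtering, 610 T and NK cells remained in the tumour and 3754 in the LN. The LN gave 1179 CD4+ T cells, 1714 CD8+ T cells, 308 Treg cells, 96 γδ T cells and 59 NK cells, with a median of 2373 to 3523 UMIs per cell. The tumour gave 553 CD8+ T cells (median 1588 UMIs), 30 Treg cells (median 1267 UMIs) and 21 NK cells (median 2553 UMIs). Only 4 tumour cells fell in CD4+ T cell clusters and none in the γδ T cell cluster, so these classes were described in the LN alone. A further 370 LN T cells, here mixed T cells, could not be given a class and are left out of the orders below. The 2 libraries shared 47 cell barcodes, which belonged to 3 T and NK cells of the tumour and 11 of the LN. Tumours and LNs were digested with different enzymes and for different times, which cannot be told apart from the tissue.

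The classes were named from marker genes, none of which was a member. High sums of a class's own markers were thus fixed by the naming and do not check it. Cd4, Cd8a and Cd8b1 UMIs showed that the tumour CD8+ T cell class was not pure. Of its 553 cells, 342 had UMIs of Cd8a or Cd8b1 and not of Cd4, 45 had Cd4 UMIs alone, 5 had both and 161 had neither. Levels are given as CPM, the UMIs of a gene per 1000000 UMIs of all genes in the summed cells. The 8 NK markers summed to 510.3 CPM in tumour CD8+ T cells and to 42.9 in LN CD8+ T cells, with Klra4, Klra7 and Klra8 at 0 in the tumour class. Of the tumour sum Prf1 alone gave 313.8, Klre1 123.1, Klri2 47.2, Klrb1c 17.7 and Ncr1 8.43. The 8 Treg markers summed to 1102 and 186 CPM in tumour and LN CD8+ T cells, against 6817 in tumour Treg cells and 3622 in LN Treg cells. In tumour CD8+ T cells Tnfrsf9 had 420, Ctla4 275, Tnfrsf18 170, Tnfrsf4 110 and Il2ra 105. Izumo1r had 14.3 there, Lrrc32 6.75 and Gpr83 0. Markers of B cells summed to 2.53 CPM in tumour CD8+ T cells, and 5 of the 6 were at 0 there. In LN γδ T cells, where the 8 γδ markers summed to 1167 CPM, all 6 B cell markers were detected and summed to 155, against 13.9 to 33.5 in the LN CD4+, CD8+ and Treg classes. Of the 4 plasma cell markers Mzb1 and Tnfrsf17 were at 0, and 258.7 of the summed 261.8 CPM came from 1 gene. Sdc1, one of those detected, was itself a leading gene of the γδ cluster. The part of B cell RNA in the γδ values below was not tested.

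Levels are compared between classes and not between genes. The plot of levels by class shows all 9 genes in the 8 groups of cells.

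**Figure D1:**
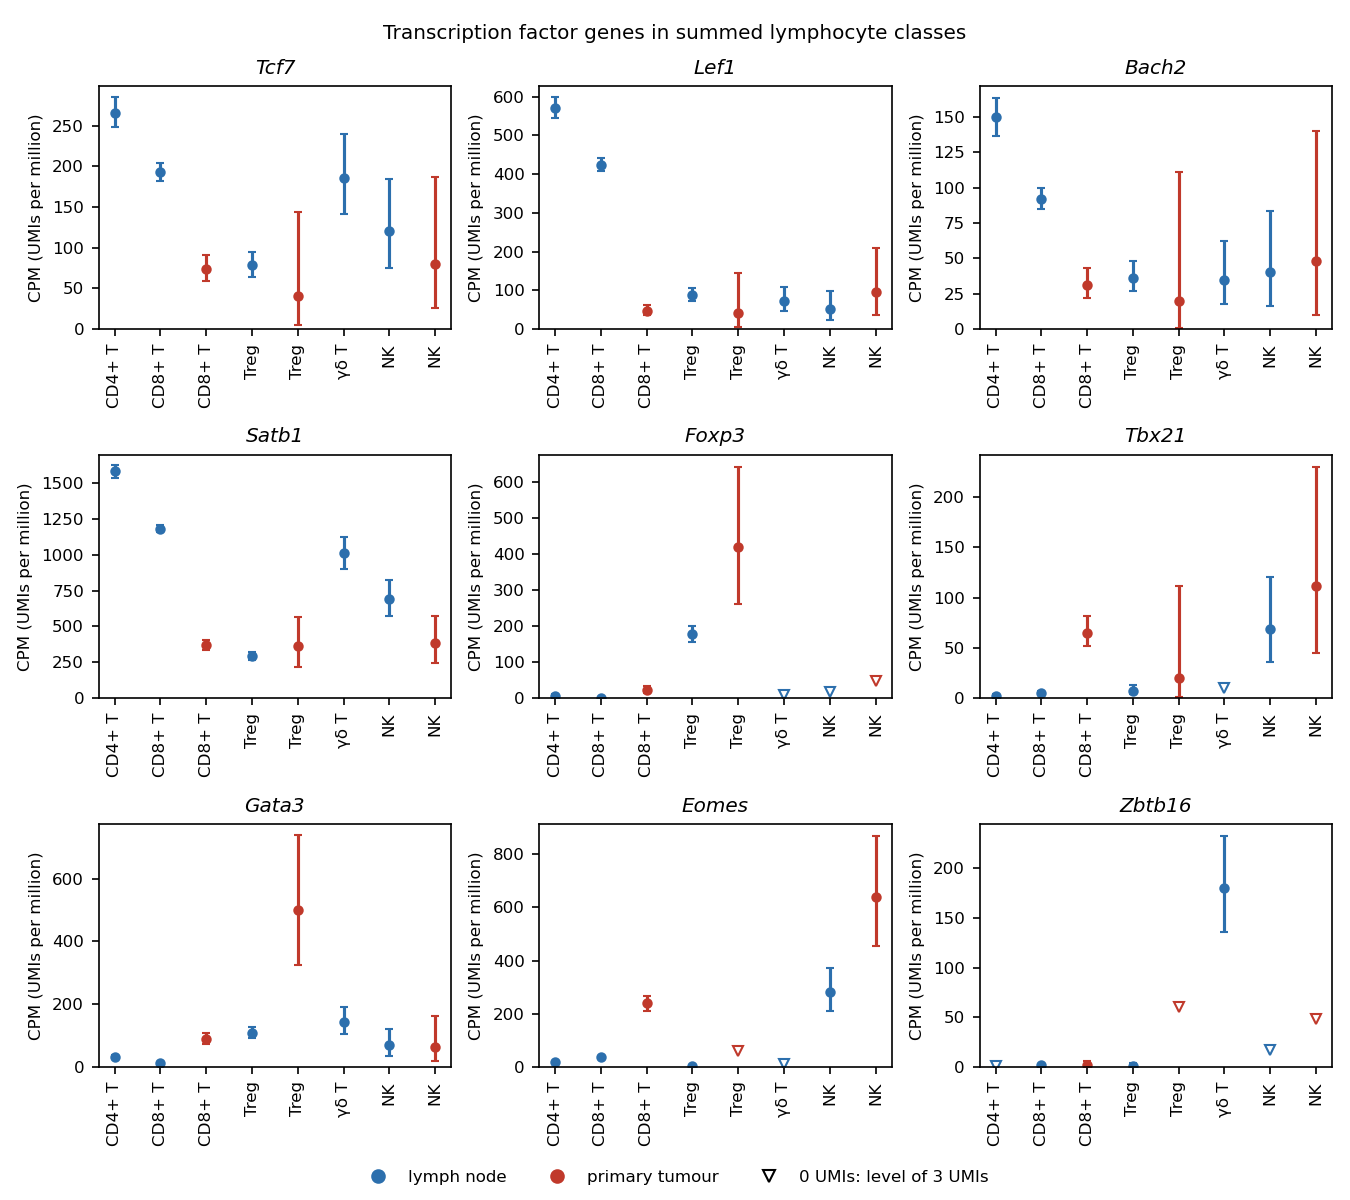
Level of each gene (y axis, CPM) in the summed cells of each lymphocyte class (x axis), with LN in blue and primary tumour in red. Bars are exact Poisson 95% intervals, and open triangles mark classes with 0 UMIs at the level that 3 UMIs would give. Tcf7, Lef1, Bach2 and Satb1 have their highest point in LN CD4+ T cells, Foxp3 and Gata3 in tumour Treg cells, Tbx21 and Eomes in tumour NK cells and Zbtb16 in LN γδ T cells.

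Among the named classes, Tcf7 (chr11:52252371-52283014, minus strand, GRCm38) was highest in LN CD4+ T cells, at 266 CPM (249 to 285, from 840 UMIs). LN CD8+ T cells followed at 193 (182 to 204) and LN γδ T cells at 186 (142 to 240), and these neighbours did not differ beyond counting error. LN NK cells had 121 (74.9 to 185), LN Treg cells 78.4 (64.4 to 94.5), and tumour CD8+ T cells 74.2 (59.5 to 91.4; 88 UMIs in 56 cells). Below the first class in this order, each class had an interval that reached its neighbour. Mixed T cells of the LN, left out of this order, had 330 (297 to 365), above the first class. The values of 79.9 in tumour NK cells and 40.0 in tumour Treg cells rested on 5 and 2 UMIs. Because cells of the tissues differed in depth, each cell was also thinned to 1000 UMIs. A Tcf7 UMI was then expected in 23.8% of LN CD4+ T cells, 17.7% of LN CD8+ T cells and 6.69% of tumour CD8+ T cells (48.2%, 47.8% and 10.1% before thinning). The same share was 0.188% in LN B cells (median 1813 UMIs) and 0.296% in tumour macrophages and monocytes (median 2390.5 UMIs), which should lack the gene.

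Lef1 (chr3:131110471-131224356, plus strand) had 571 CPM (545 to 598) in LN CD4+ T cells and 425 (409 to 441) in LN CD8+ T cells. Every other named class lay below 100, from 95.9 in tumour NK cells (6 UMIs) and 87.7 in LN Treg cells (72.9 to 105) downwards. The lowest were 47.2 in tumour CD8+ T cells (35.7 to 61.3, from 56 UMIs) and 39.98 in tumour Treg cells (2 UMIs). The step from LN CD8+ T cells to the rest was the widest in the order, and none of the lower classes differed from its neighbour beyond counting error. Mixed T cells of the LN, left out of this order, had 398 (362 to 437). After thinning, a Lef1 UMI was expected in 42.4% of LN CD4+ T cells, 33.7% of LN CD8+ T cells and 5.35% of tumour CD8+ T cells, against 0.952% of LN B cells and 0.0348% of tumour macrophages and monocytes.

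Bach2 (chr4:32238804-32586108, plus strand), a repressor that holds back effector differentiation, had 149.6 CPM (136 to 164) in LN CD4+ T cells and 91.9 (84.7 to 99.5) in LN CD8+ T cells. LN NK, Treg and γδ T cells lay at 40.3, 36.4 and 34.7, and tumour CD8+ T cells at 31.2 (22.0 to 43.0; 37 UMIs). B cells of the LN, in which the gene is known to act as well, had 175 (167 to 183) and held 57.8% of all Bach2 UMIs of the LN library.

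Satb1 (chr17:51736187-51833290, minus strand) encodes a chromatin organiser, and its order in the LN could be resolved at each step. It had 1582 CPM in CD4+ T cells (1538 to 1626), 1182.5 in CD8+ T cells (1156 to 1209), 1009.5 in γδ T cells (902 to 1126), 691 in NK cells (573 to 827) and 290.1 in Treg cells (263 to 320). All 3 tumour classes lay together, at 384 in NK cells, 369 in CD8+ T cells and 360 in Treg cells, without a difference between neighbours beyond counting error. B cells of the LN had 772, so Satb1 UMIs were not particular to T cells.

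Within the LN, Treg cells were thus lower than CD4+ T cells in Tcf7, Lef1, Bach2 and Satb1. The share of all genes that were lower in this comparison is not given here. The log2 ratio of Treg cells over CD4+ T cells was -1.76 (-2.06 to -1.48) for Tcf7, -2.70 (-2.98 to -2.44) for Lef1, -2.03 (-2.49 to -1.62) for Bach2 and -2.45 (-2.60 to -2.30) for Satb1. CD8+ T cells of the LN lay closer to CD4+ T cells, with log2 ratios between -0.70 for Bach2 and -0.42 for Satb1. γδ T cells kept Tcf7 near the level of LN CD8+ T cells, with a log2 ratio of -0.04 (-0.45 to 0.33), but were lower in Lef1, at -2.52 (-3.21 to -1.96).

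Promoters of these genes were searched for the letters CTTTGA, the core of the motif bound by TCF-1 and LEF-1, on both strands of the 250 bases before each annotated start in RefSeq (GRCm38.p6). The RefSeq table matched 8 of the 9 genes, with 17 windows in all. The motif was present in 2 of these windows, and in 13.8% of the 32851 windows of all genes. Its share among the windows of these genes was thus no higher than among all windows, and none of the 2 Tcf7 and 5 Satb1 windows held it. Both matching windows are printed to show the letters in place. Each lies inside the gene span given above, at an annotated start downstream of its beginning. In Lef1, 1 of 4 windows held it at 180 and 120 bases before the start (chr3:131156069-131156224, plus strand), and in Bach2 the single window held it 93 bases before the start (chr4:32417297-32417392, plus strand). Capitals mark the motif, which reads TCAAAG on this strand.
Lef1: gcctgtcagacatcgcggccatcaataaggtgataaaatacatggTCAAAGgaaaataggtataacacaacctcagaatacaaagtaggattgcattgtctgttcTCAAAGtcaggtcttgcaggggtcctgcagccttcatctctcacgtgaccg
Bach2: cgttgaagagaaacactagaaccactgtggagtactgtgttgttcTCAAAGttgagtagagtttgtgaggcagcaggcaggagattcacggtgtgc
These matches describe letters and not bound sites. The letters AGATAA, bound by relatives of Gata3, were present in 1 Foxp3 window and in 9.99% of all windows, and GGTGTGA, bound by T-box factors such as T-bet, was present in none of the 17 and in 3.33% of all windows.

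Foxp3 (chrX:7573644-7595245, plus strand) followed the Treg class, although it was used neither to cluster nor to name the cells. Treg cells of the LN had 176 CPM (155 to 199; 247 UMIs) and those of the tumour had 420 (260 to 642; 21 UMIs). LN CD4+ T cells had 6.66 (4.12 to 10.2) and LN CD8+ T cells 0.456 (3 UMIs). No Foxp3 UMI was counted in γδ T cells or in NK cells of either tissue, where 3 counts would have given 9.46, 17.3 and 48.0. Of the 301 Foxp3 UMIs in kept cells of the LN library, 82.1% (77.3 to 86.2) lay in the Treg class. The share was lower with each library clustered on its own, without cell cycle regression and, most, with gates on single cells, as given in the section on processing. Thinned to 1000 UMIs, 19.2% of LN Treg cells and 29.9% of the 19 tumour Treg cells deep enough were expected to show a Foxp3 UMI, against 0.0387% of LN B cells.

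In the tumour, more Foxp3 UMIs fell in the CD8+ T cell class than in the Treg class, 26 against 21 of the 59 counted. The level in tumour CD8+ T cells was 21.9 CPM (14.3 to 32.1), and the 26 UMIs came from 14 cells. The coreceptor genes of these 14 cells were mixed: 2 had Cd8a or Cd8b1 UMIs alone, 4 had Cd4 alone, 1 had both and 7 had neither. In the 342 tumour cells with CD8 UMIs and no Cd4 UMI, 5 Foxp3 UMIs were counted (5.84 CPM), and in the corresponding 1127 LN cells none was counted. The part that cells of other classes within the cluster play in this Foxp3 level was not tested.

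Tbx21 (chr11:97098071-97115331, minus strand) was counted mainly in NK cells and in tumour CD8+ T cells. NK cells had 112 CPM (44.99 to 231; 7 UMIs) in the tumour and 69.1 (35.7 to 121; 12 UMIs) in the LN, and tumour CD8+ T cells had 64.9 (51.3 to 81.2; 77 UMIs). These values did not differ beyond counting error. The other LN classes lay between 7.13 in Treg cells and 1.90 in CD4+ T cells, and no Tbx21 UMI was counted in γδ T cells. Tumour Treg cells had 1 Tbx21 UMI.

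Eomes (chr9:118478212-118486132, plus strand) was also highest in NK cells, at 639 CPM (457 to 871) in the tumour and 282 (209 to 373) in the LN. Tumour CD8+ T cells had 239 (212 to 268; 283 UMIs in 150 cells), LN CD8+ T cells 35.9 (31.5 to 40.8) and LN CD4+ T cells 16.8 (12.6 to 22.0). The first step of this order, from tumour to LN NK cells, exceeded counting error, whereas LN NK cells and tumour CD8+ T cells did not differ. Thinned to 1000 UMIs, 49.5% of tumour NK cells, 26.7% of LN NK cells, 18.3% of tumour CD8+ T cells and 2.997% of LN CD8+ T cells were expected to show an Eomes UMI, against 0.0360% of tumour macrophages and monocytes. No Eomes UMI was counted in the 30 tumour Treg cells, so that tumour CD8+ T cells were at least 3.98-fold higher against a floor of 3 counts.

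The Eomes UMIs of LN CD4+ T cells were concentrated in few cells. Of 53 UMIs in 14 cells, 48 lay in 1 cluster of 108 cells led by Penk, Tnfsf8 and Gpm6b, which had 104 CPM. Of these 14 cells, 6 had UMIs of CD8 genes and not of Cd4, and they held 33 of the 53 UMIs, while 3 had Cd4 UMIs alone and 5 had neither. Most cells of the cluster with coreceptor UMIs had Cd4 alone, 70 against 14 with CD8 alone.

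Gata3 (chr2:9857078-9890034, minus strand) was highest in tumour Treg cells, at 499.8 CPM (323 to 738; 25 UMIs in 17 of 30 cells). This level exceeded that of the next class, LN γδ T cells at 142 (104 to 190; 45 UMIs), by more than counting error. LN Treg cells had 109 (92.5 to 128), tumour CD8+ T cells 90.2 (74.0 to 109; 107 UMIs), NK cells 69.1 in the LN and 63.9 in the tumour, LN CD4+ T cells 31.7 (25.8 to 38.6) and LN CD8+ T cells 13.4 (10.7 to 16.5). In γδ T cells the 45 UMIs came from 18 cells, of which 1 alone held 9. LN B cells had 0.9899 CPM, so that Gata3 UMIs were rare where the gene should be absent.

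Zbtb16 (chr9:48654297-48836222, minus strand) was counted, among the lymphocyte classes, mainly in γδ T cells, whose 10 leading genes it was among although it was not used to form the cluster. LN γδ T cells had 180 CPM (136 to 233), from 57 UMIs in 36 of 96 cells, which were 68.7% of the 83 Zbtb16 UMIs in kept cells of the LN library. In the tumour library 89.4% of the 113 Zbtb16 UMIs lay in cancer cells. CD4+ T cells had none in 1179 cells, so that γδ T cells were at least 189-fold higher, and NK cells of the LN had none in 59 cells, which gives at least 10.4-fold. The remaining classes had 11 UMIs in 1714 LN CD8+ T cells, 2 in 553 tumour CD8+ T cells and 1 in 308 LN Treg cells, or at most 1.69 CPM. Tumour Treg and NK cells had none, where 3 counts would have given 59.97 and 48.0 CPM. Foxp3, Tbx21 and Eomes, by contrast, had 0 UMIs in the same γδ T cells, where 3 counts would have given 9.46 CPM.

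CD8+ T cells offered the deepest comparison between tissues, and the 9 genes split into opposite directions there. Lef1, Satb1, Bach2 and Tcf7 were lower in tumour than in LN CD8+ T cells, and Foxp3, Tbx21, Gata3 and Eomes were higher. A gene was compared where the summed cells of both tissues together held at least 20 UMIs, and counted where the levels differed at least 2-fold. Of the 9 genes 8 were compared, 4 were lower and 4 were higher. Among all 9410 genes compared, 5.93% were lower and 31.5% were higher by the same rule, and the median log2 ratio was 0.54. The 4 lower genes were thus counted in a direction that few genes took, and the 4 higher genes in the more common direction.

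Lef1 showed the largest decrease, from 425 to 47.2 CPM, with a log2 ratio of -3.16 (-3.58 to -2.79). Satb1 was lower by a log2 ratio of -1.68 (-1.82 to -1.54), with 438 UMIs in the tumour and 7773 in the LN. Bach2 had a log2 ratio of -1.54 (-2.08 to -1.08) and Tcf7 one of -1.37 (-1.71 to -1.06). For Tcf7 the size depended on how cells were weighted: as a mean of the levels of single cells the log2 ratio was -0.79, under the 2-fold limit, and among cells gated on CD8 UMIs it was -2.35.

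Among the higher genes, Tbx21 had 77 UMIs in the tumour and 33 in the LN, a log2 ratio of 3.68 (3.09 to 4.33). Gata3 had 107 and 88 UMIs and a log2 ratio of 2.75 (2.33 to 3.18), and Eomes had 283 and 236 UMIs and one of 2.73 (2.48 to 2.99). The intervals of these 3 genes lay above the median of all genes. Foxp3 had the largest value, 5.39 (3.88 to 7.95), but from 26 UMIs against 3, and it came to 1.60 when cells were gated on coreceptor UMIs in place of clusters and 1.86 when each library was clustered on its own. Zbtb16, with 2 and 11 UMIs, was too rare to compare.

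**Figure D2:**
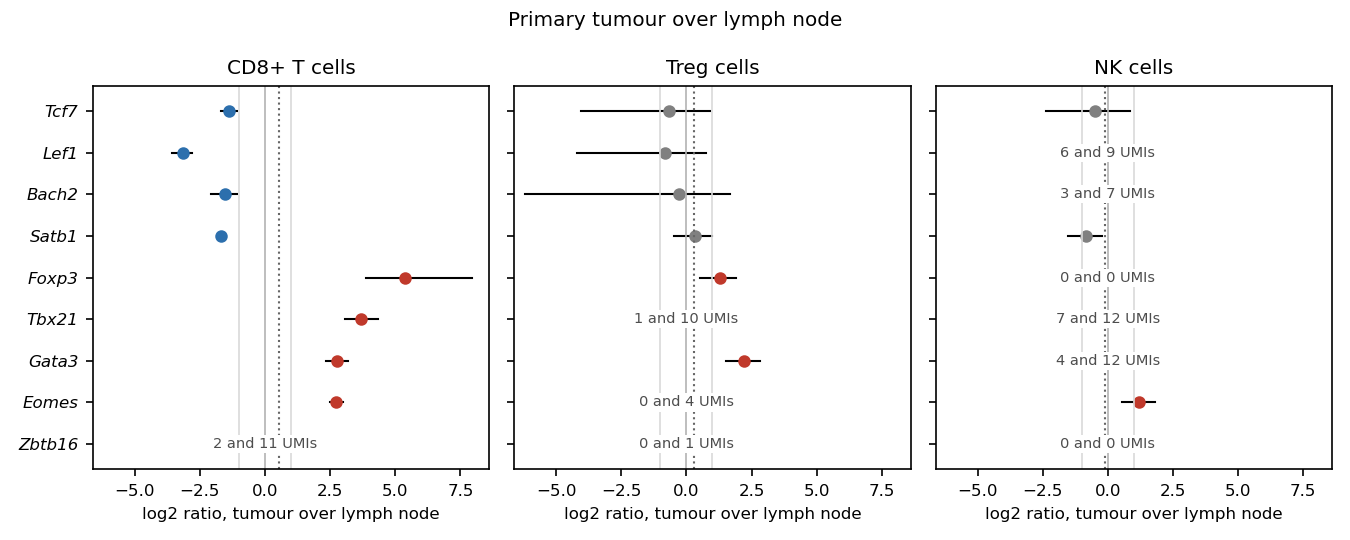
Log2 ratio of the level in primary tumour over LN (x axis) for each gene (y axis) in CD8+ T cells, Treg cells and NK cells, with 95% intervals for counting error. Blue points are at least 2-fold lower, red points at least 2-fold higher and grey points within 2-fold, solid lines mark 0 and the 2-fold limits, the dotted line is the median of all genes compared, and genes with under 20 UMIs show their tumour and LN UMIs in place of a point. In CD8+ T cells 4 genes lie left of the lower limit and 4 right of the upper one, whereas in Treg cells only Foxp3 and Gata3 pass a limit and in NK cells only Eomes.

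Other measures differed between the same CD8+ T cells. The median depth was 1588 UMIs per cell in the tumour and 3523 in the LN, and the median mitochondrial share was 3.59% and 2.00%. The 5 keratin and Epcam markers of the cancer cells were all detected and summed to 325 CPM in the tumour class and 69.7 in the LN class, and 8 stress genes known to respond to tissue dissociation summed to 1356 and 2377. The 5 fibroblast markers summed to 49.8 and 8.67 and the 6 macrophage markers to 19.4 and 0.152. Their part in the ratios was not tested. In addition, different clusters held the class in each tissue. Tumour CD8+ T cells lay almost wholly in a cluster led by Csf1, Ccl3 and Ccl4 (267 cells) and in one led by Fgl2, Rgs16, Pdcd1 and Gzmb (283 cells). LN CD8+ T cells lay in clusters of 805, 403, 376 and 99 cells.

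The 2 tissues met in the cluster led by Fgl2, Rgs16, Pdcd1 and Gzmb, which also held 30 LN cells. There, Tcf7 had 92.0 CPM in the tumour and 121 in the LN, Satb1 had 292 and 364, and Eomes had 143 and 142. Bach2 had 13.7 and 30.4, from 7 and 3 UMIs, and Foxp3 21.5 and 10.1, from 11 and 1. The log2 ratio was -0.44 (-1.34 to 0.65) for Tcf7, -0.44 (-1.52 to 0.96) for Lef1 and 0.48 (-0.87 to 2.59) for Tbx21. For none of the 9 genes did the interval exclude 0 within this cluster, but with 30 LN cells the intervals for most genes still held differences of 2-fold. The share of all genes for which the same held is not given here, so this count is not set against a background.

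Within the tumour, the cluster led by Csf1, Ccl3 and Ccl4 had more Eomes than the cluster led by Fgl2, 313 against 143 CPM, a log2 ratio of 1.13 (0.74 to 1.54). Bach2 was higher there as well, at 1.60 (0.45 to 3.11), from 29 and 7 UMIs, and so was Satb1, at 0.54 (0.25 to 0.83). Lef1 was lower, at -1.04 (-1.94 to -0.21). Tbx21, Gata3 and Foxp3 had log2 ratios between 0.05 and 0.11 with intervals that included 0.

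A finer clustering divided tumour CD8+ T cells further, and it is shown because it separated most Tcf7 UMIs from the rest. A group of 187 cells led by Ccl5, Ttc39b and Bhlhe40 had 201 CPM of Tcf7, 129 of Lef1 and 557 of Satb1. A group of 257 cells led by Csf1, Ccl3 and Ccl4 had 38.3, 26.6 and 410 for the same genes, and 311 of Eomes. A group of 85 cells led by Gzmf, Serpine2 and Prf1 had 0 UMIs of Tcf7, 15.8 CPM of Lef1 and 82.9 of Satb1. Because the clustering is shown for its Tcf7 UMIs, their split and that of genes varying with them are a description. In the coarser clustering the tumour clusters led by Csf1 and by Fgl2 differed in Tcf7 by a log2 ratio of -0.61 (-1.26 to 0.03). The groups differed in depth, since the cells of the first had a median of 1029.5 UMIs and those of the last one of 2574, so that the group with most Tcf7 was the shallower one. It was also the one with the lowest share of cells with CD8 UMIs: counted over both tissues, 76 of its 204 cells had CD8 UMIs alone and 16 had Cd4 alone, against 194 and 25 of 261 in the cluster led by Csf1 and 79 and 6 of 93 in that led by Gzmf. The part of cells other than CD8+ T cells in these levels was not tested.

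Members of the type 1 programme had another order over the same groups. Tbx21 had 98.7 CPM in the 85 cells led by Gzmf and 31.2 in the 187 cells led by Ccl5, a log2 ratio of 1.59 (0.41 to 3.11), whereas its 66.6 in the cells led by Csf1 differed from neither beyond counting error. Eomes was lowest in the cells led by Gzmf, at 51.3 against 232 in those led by Ccl5, a log2 ratio of -2.13 (-3.18 to -1.28), and the groups led by Ccl5 and Csf1 did not differ beyond counting error (-0.42, -0.90 to 0.02). Tbx21 and Eomes thus differed in opposite directions between these groups. Gata3 lay at 120.4, 83.2 and 79.0 in the groups led by Ccl5, Csf1 and Gzmf, and the intervals of their differences included 0. Counted over both tissues, the mean level of the NK markers was 13.5, 56.1 and 117.2 CPM in the same order. That of the Treg markers was 150.9, 81.2 and 261.8, and the part of these markers was not tested.

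**Figure D3:**
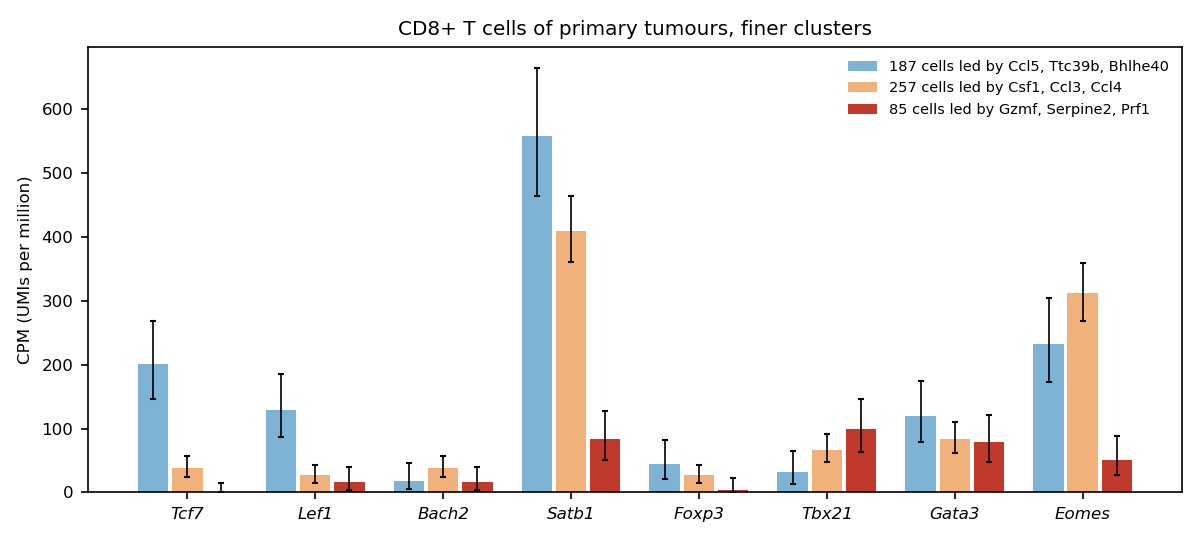
Level (y axis, CPM) of 8 of the genes in 3 groups of primary tumour CD8+ T cells from a finer clustering that used none of these genes. The clustering is shown because it separated most Tcf7 UMIs, so the differences between groups are a description. Bars start at 0 and their whiskers are exact Poisson 95% intervals. Tcf7 and Lef1 are highest in the 187 cells led by Ccl5, Eomes is lowest in the 85 cells led by Gzmf, and the whiskers of Tbx21 in the 257 cells led by Csf1 overlap those of both other groups.

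Single tumour CD8+ T cells were read in the same way. Of the 56 cells with a Tcf7 UMI, 21.4% also had a Lef1 UMI and 53.6% a Satb1 UMI, against 6.84% and 37.8% of the cells without one. An Eomes UMI was present in 14.3% of the cells with Tcf7 and 28.6% of those without. The cells with Tcf7 had a lower median depth, 1224.5 against 1626 UMIs. In LN CD8+ T cells, 72.3% of cells with Tcf7 and 67.4% of cells without it had a Lef1 UMI, at median depths of 3765 and 3308 UMIs.

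LN CD8+ T cells varied among themselves in part along the same genes. The cluster of 376 cells led by Ly6c2, Sidt1 and Ccl5 had more Eomes than the cluster of 805 cells, 74.9 against 11.2 CPM, a log2 ratio of 2.72 (2.17 to 3.35). Tbx21 was higher by 2.502 (0.97 to 4.67), from 15 and 4 UMIs. Lef1, Bach2 and Satb1 were lower, at -1.37 (-1.53 to -1.21), -0.89 (-1.21 to -0.58) and -0.48 (-0.56 to -0.40). Tcf7 did not follow them, with 187 and 183 CPM and a log2 ratio of 0.03 (-0.18 to 0.23).

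LN CD4+ T cells varied in the resting genes as well. The 108 cells led by Penk, Tnfsf8 and Gpm6b had 49.99 CPM of Lef1 against 705 in the 825 cells led by Itm2a, Rflnb and Dusp10, a log2 ratio of -3.79 (-4.48 to -3.23). Satb1 had 154 against 1962, a log2 ratio of -3.66 (-4.03 to -3.33), and Bach2 39.1 against 172, one of -2.10 (-2.91 to -1.45). Of the 4, Tcf7 again differed least, with 211 and 291 CPM and a log2 ratio of -0.46 (-0.79 to -0.15). Gata3 was higher in the 108 cells, at 60.9 against 25.3, a log2 ratio of 1.28 (0.54 to 1.96). The mean level of the 8 Treg markers moved with these genes, at 272.7 CPM in the first cluster and 30.2 in the second, and its part was not tested.

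Treg cells were compared over 30 tumour and 308 LN cells. Gata3 and Foxp3 were higher in the tumour, and the resting genes showed no difference beyond counting error. Of the 9 genes 6 were compared, none was at least 2-fold lower and 2 were at least 2-fold higher, where 15.2% and 25.0% of the 6264 genes compared were. Gata3 had a log2 ratio of 2.22 (1.52 to 2.81) and Foxp3 one of 1.28 (0.54 to 1.90), beside a median of 0.29 over all genes. Tcf7, Lef1 and Bach2 rested on 2, 2 and 1 tumour UMIs, with log2 ratios of -0.66, -0.82 and -0.29 whose intervals reached from under -4 to above 0. For Satb1, with 18 tumour UMIs, the log2 ratio was 0.35 (-0.46 to 0.99), and it ran from -1.19 with gates on single UMIs to 1.21 with each library clustered on its own. Under the same settings the Foxp3 ratio was 0.92 and 0.68, within 2-fold, and the Gata3 ratio 1.81 and 1.73. With doublets kept, only 6 tumour cells fell in the Treg class, too few to compare. The count of lower genes, 0 here, came to between 0 and 3 under other settings. Cancer cell markers summed to 180 CPM in tumour and 78.4 in LN Treg cells, and their part was not tested. Markers of dendritic cells summed to 79.96 and 8.55 CPM in the same classes, plasmacytoid dendritic cell markers to 199.9 and 109.8, monocyte markers to 119.9 and 70.6 and fibroblast markers to 59.97 and 9.98. In tumour Treg cells 1 UMI gave 19.99 CPM, and the part of these cells was not tested either. The median mitochondrial share was 3.48% in tumour and 1.80% in LN Treg cells, and the 8 T cell markers summed to 2779 and 5191 CPM. The part of these differences was not tested.

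Within Treg cells the finer clustering set apart a group led by Il1rl1, which encodes the receptor for IL-33, from a group led by Lrrc32, a gene of activated Treg cells. Foxp3 itself was among the 10 leading genes of both groups. Those of the first also held H1f5, Spc24 and Birc5, genes known from dividing cells, whose part in the differences below was not tested. The group led by Il1rl1 held 28 of the tumour cells and 136 LN cells, and the group led by Lrrc32 held 170 LN cells. Between these LN groups, cells led by Il1rl1 were lower in Tcf7 by a log2 ratio of -2.02 (-2.70 to -1.43), in Lef1 by -1.56 (-2.19 to -0.99), in Bach2 by -3.16 (-4.78 to -2.05) and in Satb1 by -1.63 (-1.96 to -1.33). They were higher in Gata3 by 0.72 (0.21 to 1.25) and in Foxp3 by 0.43 (0.05 to 0.81).

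Compared within the group led by Il1rl1 alone, tumour Treg cells still had more Gata3 than LN Treg cells, 495 against 123 CPM, a log2 ratio of 2.03 (1.29 to 2.67). Foxp3 had 413 against 198, a log2 ratio of 1.09 (0.30 to 1.74). Satb1, which did not differ over all Treg cells, had 372 against 156 in this group, a log2 ratio of 1.29 (0.45 to 1.98). Both Foxp3 and Gata3 UMIs were present in 11 of the 30 tumour Treg cells, with Foxp3 in 15 and Gata3 in 17. Of the LN Treg cells 32.1% of those with Foxp3 and 26.3% of those without had a Gata3 UMI.

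**Figure D4:**
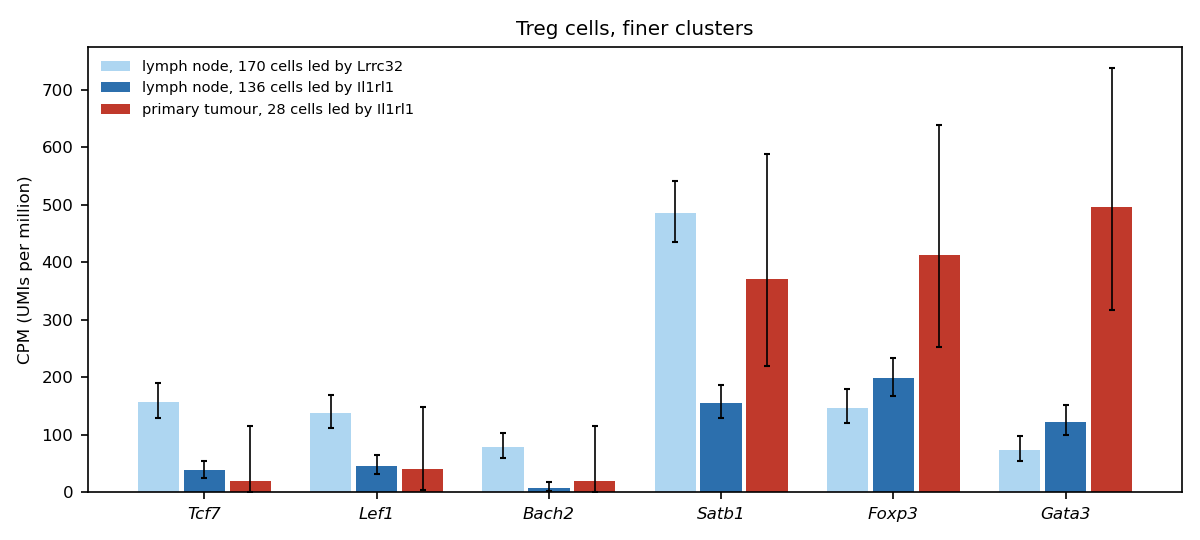
Level (y axis, CPM) of 6 of the genes in Treg cells of a finer clustering: 170 LN cells led by Lrrc32, 136 LN cells led by Il1rl1 and 28 primary tumour cells led by Il1rl1. Bars start at 0 and their whiskers are exact Poisson 95% intervals. Gata3 is highest in the tumour cells, and Tcf7, Lef1 and Bach2 are highest in the LN cells led by Lrrc32.

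NK cells allowed 3 of the 9 genes to be compared, over 21 tumour and 59 LN cells. Eomes was higher in the tumour, from 40 and 49 UMIs, with a log2 ratio of 1.18 (0.54 to 1.81), and was the 1 gene that passed the 2-fold limit, as 8.71% of the 1769 genes compared did. No gene was at least 2-fold lower, where 14.8% of all genes were. Satb1 was lower by a log2 ratio of -0.83 (-1.55 to -0.21), within 2-fold, and Tcf7 had one of -0.49 (-2.36 to 0.85). The count of higher genes became 0 when cells were gated on single UMIs, where Eomes had a log2 ratio of 0.50, and when the levels of single cells were averaged. Stress genes summed to 2510 CPM in tumour and 4241 in LN NK cells. The 8 T cell markers summed to 479.6 and 1095, with Cd3d, Cd3e, Cd3g, Trac and Cd5 at 0 in the tumour and Cd5 at 0 in the LN, and the 8 γδ markers to 0 and 115. The part of these genes and cells was not tested.

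CD4+ T cells of the tumour could be approached only by gates on single UMIs, which gave 24 tumour and 408 LN cells. Satb1 had 8 UMIs in the tumour, 215 against 1624 CPM, a log2 ratio of -2.83 (-4.13 to -1.93). Lef1 had a log2 ratio of -2.58 (-5.08 to -1.25) and Tcf7 one of -1.36 (-3.41 to -0.16), from 3 and 4 tumour UMIs. The intervals of Bach2 and Gata3, with 1 and 2 tumour UMIs, included 0. Tbx21, with 3 tumour and 6 LN UMIs, and Eomes, with 4 and 13, were under the limit of 20 UMIs, and their log2 ratios were 3.98 (1.24 to 6.10) and 3.28 (1.09 to 4.86).

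Other regulators of T cells were read from a list of 36 further transcription factor genes. In CD8+ T cells 34 of them were compared, of which 4 were at least 2-fold lower and 18 at least 2-fold higher in the tumour, beside 5.93% and 31.5% of all genes compared, and their median log2 ratio was 1.34. The 4 lower ones were Myb at -2.47, Klf2, which maintains recirculation of resting T cells, at -2.42, Zeb1 at -1.70 and Id3 at -1.69. The highest were Zbtb32 at 4.51, Bhlhe40 at 4.21, Irf8 at 4.19 and Prdm1, which encodes Blimp-1, at 4.06. In Treg cells 3 of 29 were lower and 12 higher, beside 15.2% and 25.0% of all genes, with a median of 0.91, and the highest were Zeb2 at 4.25, Id2 at 2.60, Bhlhe40 at 2.23 and Rora at 1.99. In NK cells 4 of 19 were lower and 1, Runx3 at 1.88, was higher, beside 14.8% and 8.71% of all genes, so that these counts lay near the background.

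Genes of the programmes that these factors are known to serve were counted in the same CD8+ T cells, again beside 5.93% of all genes lower and 31.5% higher. Of 10 genes of resting and memory T cells 6 were lower and 1 higher, among them Ccr7 at -4.38 and S1pr1 at -2.62, which guide T cells into and out of LNs. All 10 effector genes were higher, with a median of 3.58, led by the chemokine receptor gene Cxcr6 at 5.92 and the granzyme gene Gzma at 5.23. Of 7 checkpoint genes 5 were higher, led by Entpd1 at 5.66 and Havcr2 at 5.40. Of 8 genes of type 2 and innate-like programmes 2 were compared in CD8+ T cells, and both were higher, Areg at 5.68 and Il1rl1 at 4.92. In Treg cells 2 of the 3 compared were higher, beside 25.0% of all genes. There, Il1rl1 had a log2 ratio of 3.62 (3.09 to 4.11) and Areg, which encodes the repair factor amphiregulin, one of 2.82 (2.40 to 3.21), beside the higher Gata3. In NK cells 8 effector genes were compared, of which 3 were higher and 2 lower, beside 8.71% and 14.8% of all genes. Gzmb and Gzma were among the higher ones, at 1.89 and 1.13, and Ccl5 and Ifng were the lower ones, at -2.42 and -1.56.

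For each gene, the genes with the most similar levels were sought by Pearson's r of log2(CPM + 1) over the 20 groups of cells with at least 20 cells, among 10153 genes. The groups came from only 2 libraries, and r is a description with no test. Satb1 had its highest r with Limd2 (0.96), Foxp3 with 6330403K07Rik (0.96), Eomes with Ifng (0.94), Lef1 with Gimap3 (0.92), Tbx21 with Gzma (0.91) and Bach2 with Tnrc6c (0.91). Gata3 followed Skap1 (0.89), Zbtb16 followed Ppp1r14c (0.88) and Tcf7 followed Trbc2 (0.86).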

How the data were processed

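The deposited files hold raw counts of UMIs per gene and cell, which the authors made with Cell Ranger from 10x Genomics 3′ libraries against mouse genome build GRCm38. The submitters' processing notes name version 2.1.1, the file header names 5.0.0 and the reporting summary of the study names a later one, and the strand setting of the counting is not given in the sources used here. Kept cells had more than 200 and no more than 6000 detected genes, with a mitochondrial share of UMIs of 5% or less. Doublets were scored with Scrublet through scanpy 1.11.5: 391 tumour cells passed its automatic threshold, and because that threshold marked 0 LN cells, 616 LN cells were taken out, those whose score exceeded its percentile 94. Both libraries were clustered together on variable genes, first 2000 per library. Of these the 9 genes, the gene lists and genes detected in few cells were left out. Cell cycle scores (gene sets of Seurat 5.3.0) were regressed out, with 30 components, 15 neighbours and Leiden resolution 1.0. Clusters of T and NK cells were clustered again the same way. Clusters were named from marker genes. The thresholds of the naming rule were set after the data were seen, and the 9 genes, the gene lists and the settings were chosen with earlier results of these data known.

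UMIs were summed per class and library, for classes of at least 20 cells. Levels have exact Poisson intervals. Log2 ratios used a pseudocount of 0.5 UMIs and an exact interval for the split of 2 counts. Expected shares of cells showing a gene were calculated for cells thinned to 1000 UMIs, with exact Clopper-Pearson intervals. Shallower cells were left out: 118 tumour CD8+ T cells, 11 tumour Treg cells and at most 11 cells of any LN T or NK cell class. Of the other cells 69 LN B cells and 123 tumour macrophages and monocytes were left out. UMIs are not replicates, so intervals cover counting error only and no p-value was computed. The scripts were tested on simulated data. A barcode shared by the libraries was kept as 1 cell in each. The finer clustering is the alternative with T and NK cells clustered again at resolution 2.0. The genes to name from the other lists were those with the highest and lowest log2 ratios, up to 4 in each direction for the regulators and up to 4 by size for the other lists. One gene that this rule names is not reported here. Gene positions are from GENCODE vM21. Analyses ran in Python 3.11.15 with numpy 2.4.6 and scipy 1.17.1. Alternatives changed the filters, doublet removal, clustering, gates, weighting of cells, the cell with most UMIs of a gene and the thinning depth.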

Additional observations from a re-analysis of the deposited data

How the results depend on the processing

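The counts of genes lower and higher in tumour CD8+ T cells, 4 and 4, stayed within 1.5 times under every alternative that was run, and no log2 ratio that passed the 2-fold limit in the report turned its sign. Satb1 and Bach2 in Treg cells, within 2-fold in the report, passed the limit in opposite directions, at -1.19 and -1.96 with gates on single cells and at 1.21 and 1.08 with each library clustered on its own. The number of genes lower in tumour Treg cells, 0 in the report, was 1 with at most 10% mitochondrial UMIs, with no upper limit on detected genes, with the 9 genes and the lists kept among the variable genes, without cell cycle regression and at resolution 2.0, and 3 with gates on the UMIs of single cells and without the cell with most UMIs of the gene. The number of genes higher in tumour NK cells, 1 in the report, was 0 with the gates and with the mean of single-cell levels, and no tumour NK class was found at resolution 0.5 or with each library clustered on its own. With doublets kept, 6 tumour Treg cells were too few to compare. The share of LN Foxp3 UMIs in Treg cells, 82.1%, was 63.8% with each library clustered on its own, 65.1% without cell cycle regression and 32.2% with the gates. The causes were not tested. Of the other values, 17 of 175 log2 ratios, 115 of 756 levels and, at other thinning depths or none, 64 of 144 shares of cells with a UMI moved by more than their counting interval. Among CD8+ T cell ratios, Eomes ranged from 2.59 to 3.13, Gata3 from 2.05 to 3.04, Tbx21 from 3.44 to 4.09, Lef1 from -3.76 to -2.80, Satb1 from -1.82 to -1.35, Bach2 from -1.80 to -1.30, Tcf7 from -2.35 to -0.79 and Foxp3 from 1.60 to 5.64. No paired analysis was possible because each tissue has 1 library, and no replicate could be left out. Depth limits the tumour Treg and NK values, since 30 and 21 cells gave 50025 and 62557 UMIs, and also those of the 24 gated tumour CD4+ T cells.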

Other observations

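Several of the 9 genes were also counted outside T and NK cells. In the tumour library, 95.9% of the 3147 Tcf7 UMIs lay in cancer cells, which were 6121 of the 8756 kept cells. Their level of 31.0 CPM (29.9 to 32.2) was below the 74.2 of tumour CD8+ T cells and above the 3.14 of tumour macrophages and monocytes and the 6.41 of fibroblasts. Cancer cells of the LN had nearly the same level, 29.1 (26.8 to 31.5). The other cancer cell levels in the tumour were low, with 3.13 for Bach2, 1.04 for Zbtb16, 0.658 for Lef1 and 0.391 for Satb1.

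Dendritic cells of the LN had 68.6 CPM of Tcf7 (56.2 to 82.9; 107 UMIs in 49 of 268 cells), of which 1 cell held 11, and 162 of Satb1. Those of the tumour had 18.1 (5 UMIs) and 152. Endothelial cells of the LN had 23.9 of Gata3 (19.3 to 29.3; 92 UMIs in 53 of 195 cells), whereas no Gata3 UMI was counted in the 51 endothelial cells of the tumour, where 3 counts would have given 7.44, so that the LN cells were at least 3.21-fold higher. Among the LN cells no T or NK class could be given to, 370 mixed T cells had 330 CPM of Tcf7 (297 to 365).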
